A study of Mus musculus with 10 samples.

Results

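The genes of the translation initiation and elongation factors were followed in newly made RNA of mouse embryonic stem cells. They were chosen by symbol, as every row of the deposited table named Eif or Eef followed by a digit, without Eif2s3x and Eif2s3y. This gave 66 of 24901 rows, which carry 65 symbols because Eif4e3 stands on 2 rows. The symbol rule also took in Eif2c1 to Eif2c5, of which the first 4 are Argonaute genes under older names (they carry small RNAs and are not translation factors) and the last is a noncoding RNA gene in the GENCODE M21 annotation. The Eif4e3 row that could be tested has a gene identifier that GENCODE M21 gives to Gm20696, a model that spans Foxp1 and Eif4e3, so its values cannot be assigned to Eif4e3 alone.

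Bru-seq was used, in which cells take up bromouridine (2 mM for 10 min) and an antibody pulls out the RNA that holds it for sequencing. All cells were kept with LIF, PD0325901 (1 µM, a MEK inhibitor) and CHIR99021 (3 µM, a GSK3 inhibitor). The group EloA_WT has wild-type Elongin A, a subunit of a complex that stimulates elongation by RNA polymerase II, and EloA_K754M and EloA_K754R are edited cells whose Elongin A has methionine or arginine in place of lysine K754. The group CJ7_WT holds unedited cells, and Eed_null lacks Eed, a core subunit of the histone methyltransferase Polycomb repressive complex 2. Each group has 2 samples. The 6 Elongin A samples have a column each, and CJ7_WT and Eed_null are present as 1 pooled column each, so that comparison has no replicate check. The labels do not say how many edited clones were used, or whether the 2 samples of a group came from separate cultures, so p-values measure the spread between these samples, which may be technical. The labels conflict on the line: EloA_WT and Eed_null carry the background CCE28 and the other groups CJ7, the protocols name CJ7 cells throughout, and Eed_null is given the genotype EloA null. Groups here follow the titles and column names, and a difference in cell line between EloA_WT and the mutants cannot be told apart from the substitution.

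Translation of an mRNA begins when eIF4F (the cap-binding protein eIF4E, the scaffold eIF4G and the RNA helicase eIF4A) gathers the mRNA, while eIF2 brings the initiator tRNA to the small ribosomal subunit and eIF3 holds the complex together. The exchange factor eIF2B reloads eIF2 with GTP, and kinases that phosphorylate the alpha subunit of eIF2 block that step under stress. The eIF4E-binding proteins hold eIF4E back until mTOR phosphorylates them. In elongation, eEF1A delivers aminoacyl-tRNA, the eEF1B subunits recharge eEF1A, and eEF2 moves the ribosome along. Many of these genes are expressed strongly in growing cells, stem cells included.

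Intronic RPKM count a gene's intron reads, scaled by total intron length and by library depth. Introns are removed soon after they are made, so these values are closer to transcription than mature mRNA levels are. A gene was tested where its mean over the 6 Elongin A libraries was at least 0.1 RPKM, which 63 of the 66 rows passed. Eef1a2 (the neuronal and muscle form of eEF1A), Eif2c5 and the second Eif4e3 row did not, and their highest values in any of the 8 columns were 0.0545, 0.0778 and 0.0982 RPKM. "Rose" and "fell" mean an adjusted p under 0.05 in limma over all 15161 genes tested, and changes are on the log2 scale of RPKM plus 0.1, which understates those of low genes. The depth, as recovered intronic reads, was 27119813 to 40178030 for the Elongin A libraries, 89134369 for the CJ7_WT column and 73967681 for the Eed_null column. All 11 pluripotency markers in the table were at 0.1 RPKM or more in every column, and their summed level was 188.2 to 382.4 RPKM. The summed level of 22 markers of embryonic fibroblasts, the feeder cells of the culture, was 24.4 to 24.6 RPKM in EloA_WT, 29.8 to 34.7 in EloA_K754M, 33.2 to 36.7 in EloA_K754R, 32.8 in CJ7_WT and 32.3 in Eed_null. Of these markers 19 were tested, and all 19 had a positive change in both mutants (1 rose, in EloA_K754R). In bulk samples fewer cells of a type and less RNA per cell cannot be told apart, and the part of these markers in the changes of the factor genes was not tested.

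The factor genes were transcribed at high levels for this table. The median of the 63 tested members was 4.50 RPKM over the 6 libraries, against 1.09 RPKM for all genes tested. Levels ran from 0.024 to 128.9 RPKM over all 66 rows, with 10 members above 20 RPKM and 9 under 0.5. Eif4a2, an eIF4A helicase gene, was the highest member, at 178.6 and 140.0 RPKM in EloA_WT, 147.3 and 88.8 for EloA_K754M, 113.8 and 104.7 for EloA_K754R, 47.6 in CJ7_WT and 57.1 in Eed_null. Its EloA_WT and EloA_K754M values overlapped, while both EloA_K754R values lay below both of EloA_WT. GENCODE M21 places 5 small nucleolar RNA genes inside Eif4a2, 3 inside Eif4a1 and 1 inside Eef2. Of the 66 members 9 hold at least 1 such gene, so reads of those RNAs may be counted with the introns.

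In EloA_K754R, 1 of the 63 tested members fell and none rose. Of all genes tested, 3.48% were called in this comparison, 2.79% lower and 0.686% higher. Far fewer genes of the whole table were called with any 1 of the 6 libraries left out. Those fits leave 1 library in a group and 2 residual degrees of freedom in place of 3. The drop therefore cannot be tied to a single library. With limma-voom on recovered reads 4 members fell and 1 rose, against 9.04% of all genes called. With the replicate number as a block in the fit, 7 members fell (Eif4a1, Eef1a1, Eif1, Eif3g, Eif3i, Eif4a3 and Eif5a) and Eif1ax rose, against 11.7% of all genes. The labels do not say what a replicate number stands for, so the fit without the block is the one reported, and the blocked adjusted p is given beside each member it changes. The member called in the reported fit was Eif4a1 on chromosome 11, which encodes the main eIF4A helicase of the cap-binding complex. Its level was 35.1 and 34.0 RPKM in EloA_WT, 24.0 and 21.6 for EloA_K754M, 18.95 and 18.1 for EloA_K754R, 25.3 in CJ7_WT and 21.55 in Eed_null. The EloA_WT libraries were the highest, the EloA_K754R libraries the lowest, and no 2 of the 3 groups overlapped. The change in EloA_K754R was -0.90 ± 0.14 (log2, SE, 1.86-fold lower, adjusted p = 0.0421, limma), and that in EloA_K754M was -0.60 (adjusted p = 0.150). With any 1 of the 6 libraries left out, the change lay between -0.93 and -0.86, and without either EloA_K754M library it stayed at -0.90. The call was lost in each of these fits. They have 2 residual degrees of freedom in place of 3, so the loss cannot be tied to a single library. The call was also lost with equal medians (-0.70, adjusted p = 0.0875) and by quantile normalization (-0.49, adjusted p = 0.152). The same held with the trend on intron length removed (-0.58, adjusted p = 0.135) and with no filter on low values (adjusted p = 0.0663, all limma).

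Genes of chromosome 11 were lower as a whole in both mutants. The median change of the 1323 tested genes there was -0.56 in EloA_K754R and -0.46 in EloA_K754M, against -0.11 and -0.03 for the genes elsewhere. Of all tested genes of chromosome 11, 91.1% had a negative change in EloA_K754R and 85% in EloA_K754M. The 5 members there were all negative in both mutants, which is near those shares. They were also negative under equal medians, quantile normalization, recovered reads and removal of the trend on intron length. Besides Eif4a1 they are Eif1 (start codon fidelity), Eif5a (a factor that helps ribosomes past difficult stretches), Eif4a3 (the helicase of the exon junction complex, -0.51 in EloA_K754R, adjusted p = 0.170 and 0.0383 with the replicate block, limma) and Eif4enif1 (the transporter that takes eIF4E into the nucleus). The part of this chromosome-wide difference in the change of Eif4a1 was not tested. On the X chromosome, where the median change in EloA_K754R was 0.26, Eif1ax (eIF1A, which works in scanning) was at 1.65 and 2.09 RPKM in EloA_WT, 1.67 and 2.06 for EloA_K754M, 2.74 and 3.57 for EloA_K754R, 2.41 in CJ7_WT and 2.17 in Eed_null. Both EloA_K754R values lay above all the others, and the change of 0.72 ± 0.20 (SE) had an adjusted p of 0.0998, which missed the threshold, and 0.0262 with the replicate block (limma).

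**Figure D1:**
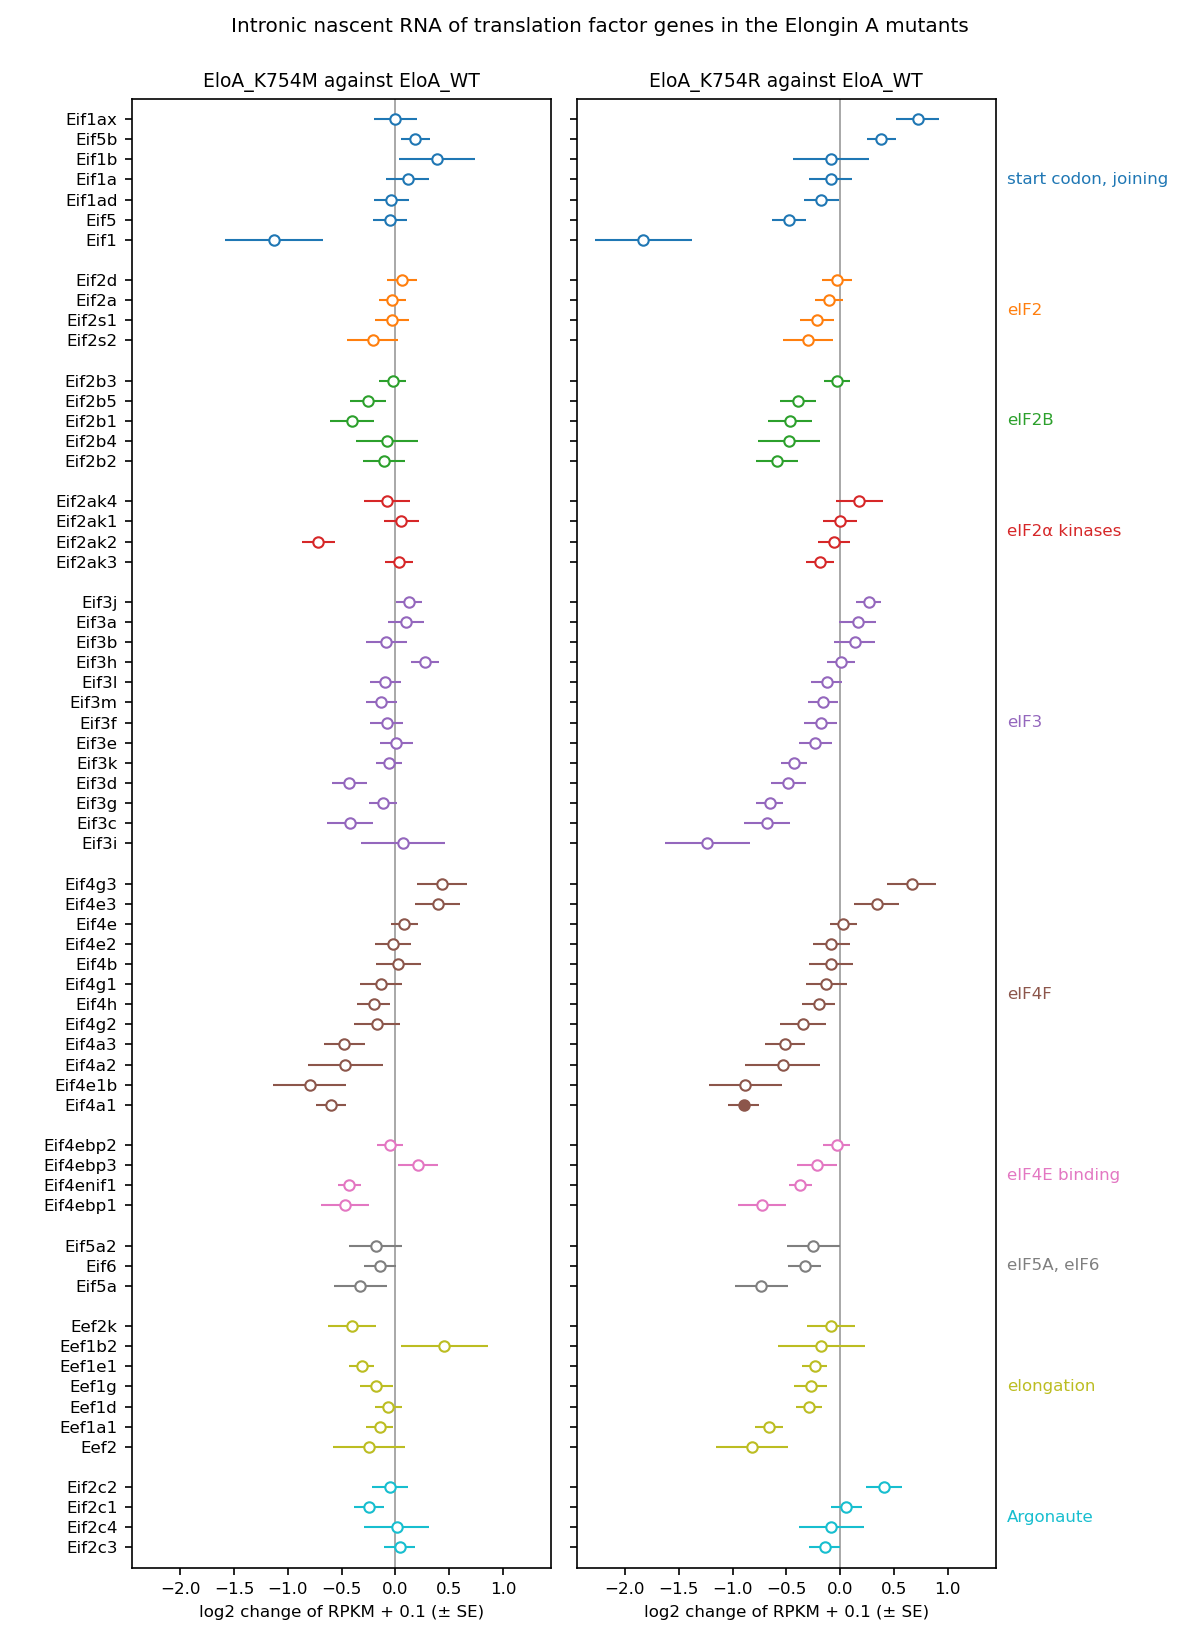
Log2 change of intronic RPKM plus 0.1 (x axis, with SE) for the 63 tested members, by role, in EloA_K754M (left) and EloA_K754R (right) against EloA_WT, n = 2 libraries a group. The filled point is the only member called in the reported fit, Eif4a1 in EloA_K754R. Most points of the right panel lie below 0. The row labelled Eif4e3 is the one that GENCODE M21 names Gm20696.

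Over all tested members, 51 of 63 (81.0%) had a negative change in EloA_K754R, against 64.5% of all genes tested. The median member change was -0.19 and the median over all genes -0.14. These directions depend on the scaling: with the libraries at equal medians the all-gene median moved to 0.05, the member median to 0.01 and the negative members to 31. Both EloA_K754R libraries lay below both EloA_WT libraries for 30 members and above for 6, where the shares of all genes were 38.8% and 18.0%. At an unadjusted p under 0.05 there were 18 members, 15 lower and 3 higher, against 25.1% of all genes, 18.9% lower and 6.19% higher.

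Among the start codon and subunit joining factors, 0 of 7 rose or fell in EloA_K754R. At an unadjusted p under 0.05, 2 were lower and 2 higher, where 18.9% of all genes were lower and 6.19% higher. Eif1 had the largest change of any member. It was at 80.6 and 32.5 RPKM in EloA_WT, 28.4 and 19.2 for EloA_K754M, 16.4 and 12.6 for EloA_K754R, 8.02 in CJ7_WT and 10.4 in Eed_null. The EloA_WT libraries were above all others, but they also differed most from each other, and the change of -1.83 ± 0.45 (SE) had an adjusted p of 0.0832 (0.0288 with the replicate block, limma). Eif1 has the shortest introns of the members, 0.0048 times the median member's, and these values rest on 182, 62, 49, 34, 31 and 32 recovered reads in the 6 libraries in the same order. Eif5, the GTPase activator of eIF2, changed by -0.47 (adjusted p = 0.144), and Eif5b, the GTPase that joins the subunits, by 0.38 (adjusted p = 0.150).

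For eIF2 and its exchange factor, no member was called. Eif2s2, the beta subunit of eIF2 and the highest of its group, was at 33.2 and 43.2 RPKM in EloA_WT, 28.9 and 36.9 for EloA_K754M, 27.4 and 34.5 for EloA_K754R, 27.2 in CJ7_WT and 35.8 in Eed_null, and the groups overlapped. All 5 eIF2B subunit genes had negative changes in EloA_K754R, with a median of -0.47, where 64.5% of all genes were negative. In 4 of the 5 both libraries were below both of EloA_WT, against 38.8% of all genes. Under equal medians 4 of the 5 were negative, against 44.6% of all genes. Eif2b5, the catalytic subunit, was at 6.23 and 8.11 RPKM in EloA_WT, 5.40 and 6.53 for EloA_K754M, 5.37 and 5.43 for EloA_K754R, 5.46 in CJ7_WT and 5.42 in Eed_null. Eif2b2, a regulatory subunit, was at 1.09 and 1.48 RPKM in EloA_WT, 1.25 and 1.11 for EloA_K754M, 0.726 and 0.909 for EloA_K754R, 0.934 in CJ7_WT and 1.15 in Eed_null. Its EloA_K754R values lay below the other 4 libraries, with a change of -0.59 ± 0.19 (SE, adjusted p = 0.140).

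The 4 genes of kinases that act on eIF2 had changes in EloA_K754R between -0.19 and 0.18, and none was past an unadjusted p of 0.05. Eif2ak3, which encodes the endoplasmic reticulum stress kinase PERK, was at 1.28 and 1.35 RPKM in EloA_WT, 1.28 and 1.42 for EloA_K754M, 1.08 and 1.22 for EloA_K754R, 1.34 in CJ7_WT and 1.36 in Eed_null. Eif2ak2, the double-stranded RNA sensor PKR, was instead lowest in EloA_K754M. Its values were 1.24 and 1.05 RPKM in EloA_WT, 0.673 and 0.641 for EloA_K754M, 1.18 and 1.01 for EloA_K754R, 2.09 in CJ7_WT and 1.27 in Eed_null. The EloA_K754M libraries were below the other 4, and the change of -0.72 had an adjusted p of 0.125.

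None of the 13 eIF3 subunit genes was called in EloA_K754R in the reported fit, where 9 changes were negative and 4 positive. Under equal medians the split was 6 and 7. Eif3a, the core subunit with the highest level, was at 16.0 and 18.6 RPKM in EloA_WT, 17.8 and 19.4 for EloA_K754M, 17.4 and 21.5 for EloA_K754R, 12.2 in CJ7_WT and 13.9 in Eed_null, and its groups overlapped. Eif3i and Eif3g, which sit on the same module of the complex with Eif3b, had their lowest Elongin A values in EloA_K754R. Eif3i was at 2.33 and 4.12 RPKM in EloA_WT, 2.34 and 4.52 for EloA_K754M, 1.09 and 1.46 for EloA_K754R, 1.43 in CJ7_WT and 1.93 in Eed_null. Its replicates differed widely, and the change of -1.23 ± 0.39 (SE) had an adjusted p of 0.130 (0.0262 with the replicate block, limma). Eif3g was tighter, at 8.37 in each EloA_WT library, 7.16 and 8.30 in EloA_K754M, 5.04 and 5.52 in EloA_K754R, 3.25 in CJ7_WT and 4.30 in Eed_null. With -0.66 ± 0.13 (SE) and an adjusted p of 0.0562, Eif3g missed the threshold; the adjusted p was 0.0318 with the replicate block and 0.0391 with limma-voom on recovered reads.

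In the eIF4F group of 12, Eif4a1 was called, 9 changes in EloA_K754R were negative and 3 positive, and under equal medians 6 were negative. The cap-binding protein gene Eif4e changed by 0.03 and the scaffold gene Eif4g1 by -0.13. Eif4g3, a second scaffold gene with long introns, was at 0.234 and 0.216 RPKM in EloA_WT, 0.273 and 0.415 for EloA_K754M, 0.459 and 0.377 for EloA_K754R, and far higher in the pooled columns, at 1.02 in CJ7_WT and 2.87 in Eed_null. All 4 mutant libraries were above both of EloA_WT, and the change in EloA_K754R was 0.67 (adjusted p = 0.149, and 0.0376 with limma-voom on recovered reads).

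Eif4ebp1, which encodes the repressor 4E-BP1, was the highest of the eIF4E-binding group. It was at 23.4 and 34.9 RPKM in EloA_WT, 19.3 and 22.0 for EloA_K754M, 16.4 and 18.2 for EloA_K754R, 24.8 in CJ7_WT and 14.2 in Eed_null. Both mutants lay below EloA_WT, and the change in EloA_K754R was -0.72 ± 0.22 (SE, adjusted p = 0.124, and 0.0442 with limma-voom). Its relative Eif4ebp2 changed by -0.03. Eif5a was at 8.47 and 12.02 RPKM in EloA_WT, 6.72 and 9.59 for EloA_K754M, 5.53 and 6.58 for EloA_K754R, 9.62 in CJ7_WT and 10.7 in Eed_null. Its EloA_K754R values were the lowest 2 of the 6, with a change of -0.73 (adjusted p = 0.142, and 0.0320 with the replicate block, limma), and its EloA_K754M values overlapped EloA_WT.

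All 7 tested elongation genes had negative changes in EloA_K754R, with a median of -0.27, where 64.5% of all genes were negative. In the reported fit 0 were called. Under equal medians 5 of 7 were negative and by quantile normalization 4. With the trend on intron length removed 6 of 7 were negative, with a median of -0.07. Eef2, the translocase and the highest of them, was at 57.7 and 86.3 RPKM in EloA_WT, 45.6 and 77.4 for EloA_K754M, 37.4 and 42.6 for EloA_K754R, 20.0 in CJ7_WT and 26.2 in Eed_null. Its EloA_K754R libraries were below the other 4, with a change of -0.82 ± 0.34 (SE, adjusted p = 0.203). Eef1a1 was at 20.6 and 21.7 RPKM in EloA_WT, 18.7 and 19.5 for EloA_K754M, 13.8 and 12.9 for EloA_K754R, 4.27 in CJ7_WT and 5.14 in Eed_null. These replicates lay close together, and the change of -0.66 ± 0.13 (SE) had an adjusted p of 0.0562, which was 0.0370 with the replicate block and 0.0143 with limma-voom.

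**Figure D2:**
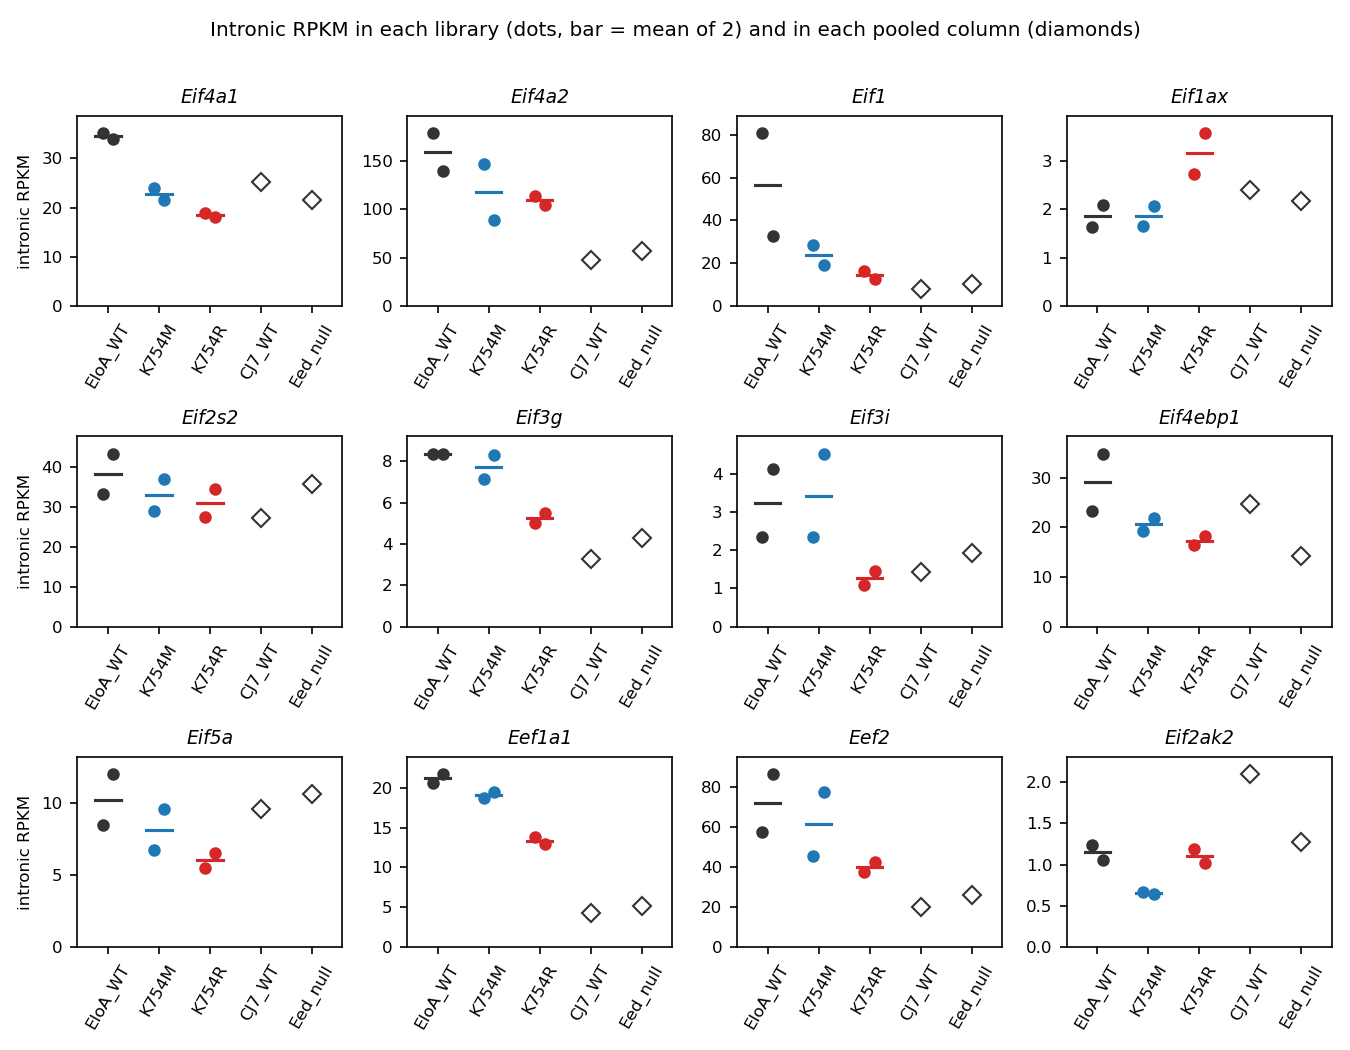
Intronic RPKM (y axis, from 0) of 12 members in the 6 Elongin A libraries (dots, with the mean of 2 as a bar) and in the pooled CJ7_WT and Eed_null columns (diamonds). Eif4a1, Eif3g and Eef1a1 show replicates close together and EloA_K754R lowest of the Elongin A groups, while Eif1 shows a wide gap between the EloA_WT libraries.

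Among the Argonaute genes, Eif2c2 (Ago2, the one that cuts its target) was at 5.93 and 5.81 RPKM in EloA_WT, 6.43 and 4.97 for EloA_K754M, 8.56 and 7.14 for EloA_K754R, 6.64 in CJ7_WT and 8.79 in Eed_null. Both EloA_K754R values were above both of EloA_WT, and the change of 0.41 had an adjusted p of 0.205. The other tested Argonaute genes changed by between -0.14 and 0.06.

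The promoters of Eif4a1 and of 4 other members with low values in EloA_K754R are shown because their windows hold motifs that were counted over all windows. Each is taken from RefSeq (GRCm38.p6, a different build from the mm9 of the RPKM table) and runs from 150 bases before to 30 after the annotated start. Capitals mark the letters TATAA, an E-box (CACGTG), a cAMP response element core (TGACGT) or an ETS site (CCGGAAG) on either strand. Overlapping matches are joined. The marked TATAA lies after the annotated start in Eef1a1 and Eif1 and before it in Eef2. Its place was not part of the search, so these letters alone do not make a TATA box.
Eif4a1, chr11:69672394-69672573, minus strand: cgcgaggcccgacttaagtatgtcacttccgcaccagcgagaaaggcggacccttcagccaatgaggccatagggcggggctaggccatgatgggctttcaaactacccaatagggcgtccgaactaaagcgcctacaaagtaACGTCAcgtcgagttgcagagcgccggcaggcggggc
Eef1a1, chr9:78481695-78481874, minus strand: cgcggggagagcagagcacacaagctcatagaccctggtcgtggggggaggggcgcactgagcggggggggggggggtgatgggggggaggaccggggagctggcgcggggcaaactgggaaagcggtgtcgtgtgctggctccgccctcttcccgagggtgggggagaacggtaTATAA
Eef2, chr10:81176481-81176660, plus strand: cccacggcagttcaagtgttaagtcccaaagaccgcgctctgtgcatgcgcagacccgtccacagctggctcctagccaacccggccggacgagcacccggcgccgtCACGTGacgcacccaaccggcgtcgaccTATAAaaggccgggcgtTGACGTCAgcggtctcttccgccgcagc
Eif1, chr11:100319799-100319978, plus strand: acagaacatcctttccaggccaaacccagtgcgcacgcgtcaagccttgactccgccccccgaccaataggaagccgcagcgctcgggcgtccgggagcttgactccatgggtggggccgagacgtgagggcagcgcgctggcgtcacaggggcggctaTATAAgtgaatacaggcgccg
Eif3g, chr9:20898561-20898740, minus strand: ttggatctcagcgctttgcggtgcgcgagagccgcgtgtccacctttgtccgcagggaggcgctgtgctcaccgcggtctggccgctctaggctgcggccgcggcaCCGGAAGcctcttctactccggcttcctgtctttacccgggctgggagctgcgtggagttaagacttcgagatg

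Promoter windows of 300 bases (250 before to 50 after the start) were at hand for 51 of the 66 members, and the motifs were chosen after these windows had been looked at. The ETS site CCGGAAG was in the window of 35.3% of the members with a window, of 19.0% of the tested genes with one and of 9.93% of all genes with one. The E-box CACGTG was in 23.5% of members, 11.7% of tested genes and 8.09% of all genes, and the cAMP response element core TGACGT in 17.6%, 12.8% and 8.37%. TATAA was in 13.7% of members, 16.6% of tested genes and 28.0% of all genes, and CCAAT in 33.3%, 42.9% and 41.1%. The ATF4 composite TGATGNAA was in 1 member window, that of Eef2k, or 1.96%, against 2.76% of tested genes. All were searched on both strands, and a match is a description of letters only.

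Intron length moved with the change in EloA_K754R. The relative intron length of a gene could be recovered from the size of the steps in its RPKM values. Among the 21 tested members with the shortest introns all 21 changes were negative, with a median of -0.47, and these include Eif1, Eif4a1, Eif3i, Eef2 and Eif5a. The 21 members of middle length had a median of -0.23 and the 21 longest a median of -0.0013, with 11 of 21 negative. The 14839 tested genes with a recovered length, cut into 3 equal classes, showed the same order, with medians of -0.31, -0.18 and 0.02. Across genes, Pearson's r of the change with log10 intron length was 0.698 over the 63 members and 0.262 over these genes, as a description, since these points share libraries and short introns carry fewer reads. In EloA_K754M the values were 0.393 and 0.0653. With the length trend of all genes removed, the member median in EloA_K754R was -0.04 and 16 of the 21 shortest were negative; under equal medians 17 were.

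**Figure D3:**
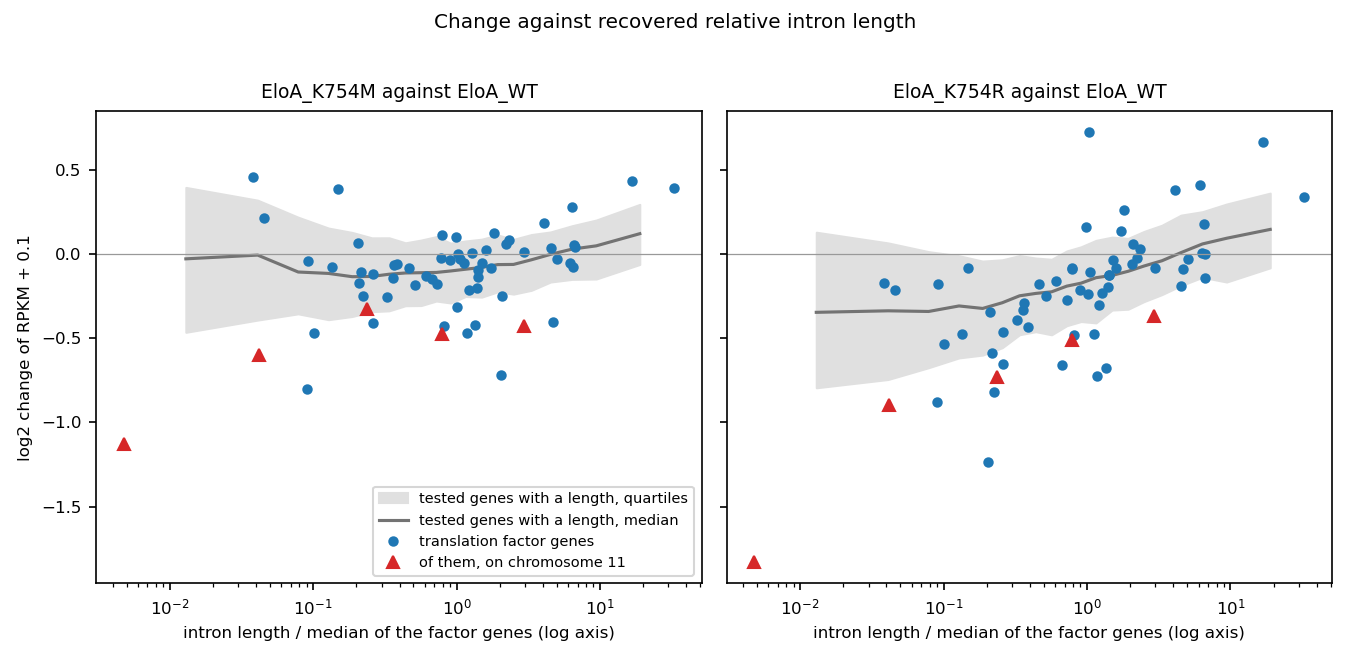
Log2 change of RPKM plus 0.1 (y axis) against recovered intron length relative to the median member (log x axis), for EloA_K754M (left) and EloA_K754R (right) against EloA_WT. Points are the 63 members (triangles: the 5 on chromosome 11), the line is the median and the band the quartiles of the 14839 tested genes with a recovered length in 20 bins of length, and in the right panel the shortest members lie lowest.

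In EloA_K754M, 0 of 63 members rose or fell by limma (background 0.218% of all genes, 0.0132% higher and 0.204% lower). By limma-voom on recovered reads 0 members were called, against 2.31% of all genes. At an unadjusted p under 0.05, 7 members were lower and 0 higher, where 10.7% of all genes were lower and 4.65% higher. Both libraries were below both of EloA_WT for 16 members (27.2% of all genes) and above for 5 (17.0%). Changes were negative for 44 of 63 members (69.8%) and 57.4% of all genes. The member median was -0.08 and that of all genes -0.06, and under equal medians they were 0.05 and 0.07. The largest changes were those of Eif1 (-1.13, adjusted p = 0.322) and Eif4e1b (-0.80, adjusted p = 0.348), an oocyte form of eIF4E that was at most 0.305 RPKM in any Elongin A library.

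Between the mutants, 0 of 63 members differed by limma (0.290% of all genes were called) and 0 by limma-voom (3% of all genes were called). At an unadjusted p under 0.05, 6 were higher and 3 lower in EloA_K754M than in EloA_K754R, where 11.6% of all genes were higher and 6.87% lower. The difference was negative for 16 of 63 members (25.4%) and 39.4% of all genes. The members with the largest differences were Eif3i (1.30 higher in EloA_K754M) and Eif1ax (0.72 lower), with adjusted p of 0.176 and 0.152, and 0.0401 and 0.0417 with the replicate block (limma). The member median of 0.09 equalled that of all genes at this precision. Comparisons with EloA_WT share its 2 libraries, so they are given side by side only.

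Genes around these factors were read from a list of 65 tested genes that are not members. It holds genes that act on the factors, other translation genes, outputs of the eIF2 stress pathway and mitochondrial translation factors. In EloA_K754R, 5 of 65 fell and 0 rose, where 2.79% of all genes fell. In the reported fit 0 were called in EloA_K754M and 0 between the mutants. At an unadjusted p under 0.05, 10 were lower and 0 higher in EloA_K754M, where 10.7% of all genes were lower and 4.65% higher. Of the 5, 3 are genes of the eIF2 stress pathway. Trib3, a pseudokinase induced by ATF4, had mean levels of 3.06 RPKM in EloA_WT, 0.364 in EloA_K754M and 0.358 in EloA_K754R, a change of -2.83 (adjusted p = 0.0369, limma). Sesn2, a stress-induced mTOR inhibitor, fell by 1.31 on the log2 scale (adjusted p = 0.0244, limma), and Ddit3, the transcription factor CHOP, fell by 1.00 (adjusted p = 0.0319, limma). Dph1, which helps to make the diphthamide of eEF2, and Mtif2, the mitochondrial initiation factor, lie on chromosome 11 and fell by 0.84 and 0.80. All 5 changes stayed negative when any 1 of the 6 libraries was left out. The calls were lost there, in fits with 2 residual degrees of freedom in place of 3. Of the 5, 2 remained called under equal medians (Sesn2 and Trib3) and 2 with no filter (Sesn2 and Ddit3). With the replicate block 9 of the 65 fell, all 5 among them, where 11.7% of all genes were called in either direction. None of the 17 genes of mTOR and MNK control was called in the reported fit. In EloA_K754R, Rps6kb1 (the S6 kinase) fell with the block and with limma-voom, and Mlst8 (an mTOR complex subunit) with the block. Rps6kb1 lies on chromosome 11, where 91.1% of tested genes had a negative change in EloA_K754R. By limma-voom 7 of the 65 fell, where 9.04% of all genes were called in either direction. In EloA_K754M, limma-voom called Larp1 (of these 17, also on chromosome 11) and Trib3 lower, against 2.31% of all genes. Between the mutants, limma-voom called Sesn2 higher and Impact lower in EloA_K754M (3% of all genes were called). The block called Sesn2 and Tufm higher there (2.34% of all genes). The altered genes themselves were not reduced to 0: Tceb3 (Elongin A) was at 1.83 and 2.03 RPKM in EloA_WT, 1.46 and 1.98 for EloA_K754M and 1.12 and 1.30 for EloA_K754R, and Eed was at 10.0 RPKM in CJ7_WT and 7.97 in Eed_null. Intronic reads outside the altered sequence do not check these genotypes.

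Without Eed, most factor genes stayed within 1.5-fold of CJ7_WT. Past that ratio were 6 of 63 members higher in Eed_null and 2 lower, where 16.0% of all genes kept were higher and 5.37% lower. The member median was 0.13 and that of all genes 0.11, and with the columns at equal medians the member median was -0.02. There is 1 pooled column a group and therefore no test. Ratios are given with exact 95% intervals of the recovered reads, which cover counting error only.

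Among the members that reached 0.5 RPKM in either column, Eif4g3 had the largest ratio, from 1.02 RPKM in CJ7_WT to 2.87 in Eed_null (interval 2.77 to 2.87). It was followed by Eif1b, a copy of Eif1 on another chromosome, from 0.265 to 0.621 RPKM (1.62 to 3.42), and Eef1d, an eEF1B subunit, from 2.73 to 4.96 (1.68 to 1.96). Eif5a2, the second eIF5A gene, went from 0.482 to 0.805 (1.43 to 1.95) and Eif6, which keeps the large ribosomal subunit apart, from 1.58 to 2.46 (1.40 to 1.72). The remaining member past 1.5-fold, Eif4e1b, was under 0.5 RPKM in both columns, at 0.122 and 0.372 (1.56 to 6.29). Lowest were Eif4ebp1, from 24.8 to 14.2 RPKM (0.563 to 0.585), and Eif2ak2, from 2.09 to 1.27 (0.578 to 0.636). Eif2d, an alternative tRNA delivery factor, went from 3.18 to 2.32 (0.705 to 0.756), Eif4enif1 from 4.11 to 3.19 (0.756 to 0.797) and Eif4a1 from 25.3 to 21.55 (0.781 to 0.931). With a pseudocount of 0.5 in place of 0.1, 3 members were past 1.5-fold in place of 8.

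**Figure D4:**
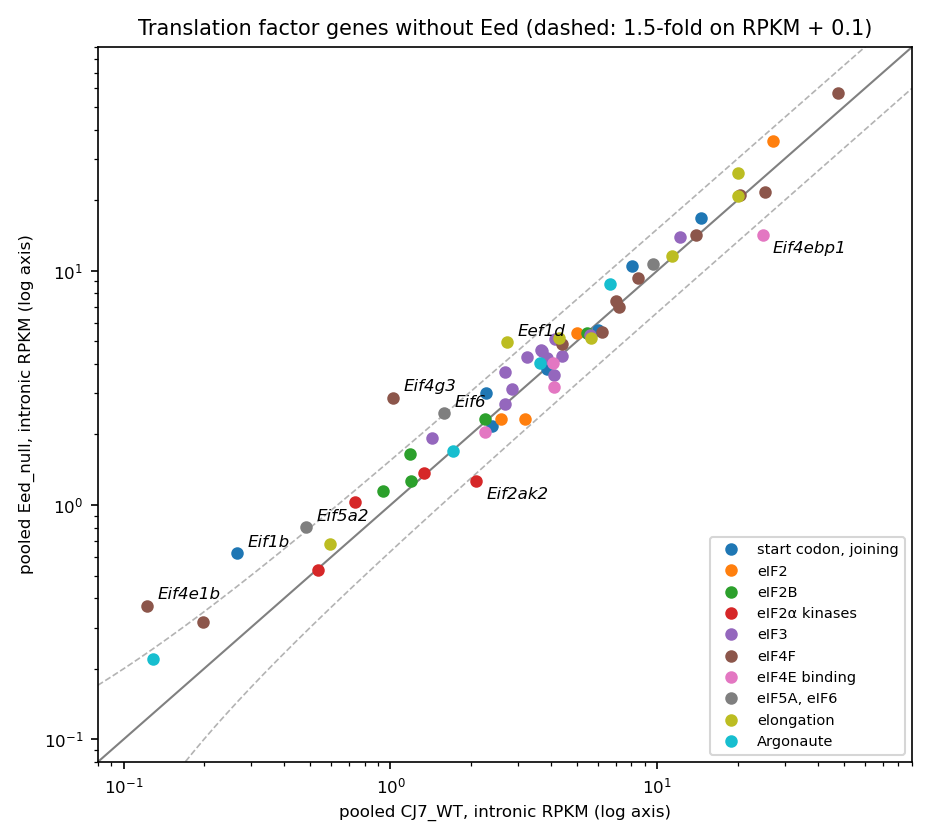
Intronic RPKM of the members in pooled Eed_null (y axis) against pooled CJ7_WT (x axis), both on log axes, coloured by role, with the line of equality and dashed lines at 1.5-fold on RPKM plus 0.1. The 8 named genes are past 1.5-fold, with Eif4e1b the farthest above the line of equality on these axes, Eif4g3 next and Eif4ebp1 the farthest below.

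The pooled CJ7_WT column also stood apart from EloA_WT for some members. The difference, CJ7_WT minus EloA_WT in log2 of RPKM plus 0.1, had a median of -0.41 over the 63 tested members and -0.20 over all genes tested. Over the 7 elongation genes the median was -1.68, with Eef1a1 at -2.28, Eef1b2 (the exchange subunit of eEF1B) at -1.98 and Eef2 at -1.81. Eif1 was at -2.66 and Eif4a2 at -1.73, while Eif4g3 was at 1.78. All 4 eIF2 kinase genes and all 4 tested Argonaute genes were higher in CJ7_WT than in EloA_WT. The difference was negative for 63.5% of the tested members and 62.5% of all genes tested. These values have no test, since CJ7_WT is 1 column, and line, culture and pooling cannot be told apart there.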

How the data were processed

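The authors deposited 1 table of intronic RPKM, with BWA and mm9 given in the submitters' processing notes and the version, counter, annotation and strand handling not given in the sources used here. Without known strand handling, reads of overlapping genes cannot be told apart: 19 members overlap a gene on the other strand and 5 one on the same strand in GENCODE M21, which was matched by gene identifier. Both columns named averages were treated as pooled values. RPKM of 20817 of 20817 genes with at least 6 columns above 0 were whole multiples of 1 read within 0.01 (0.06 above 200000 reads), which gave reads and relative intron lengths as the smallest whole numbers, known up to a common factor.

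The values, as log2 of RPKM plus 0.1, went into limma 3.58.1 (R 4.3.3) in 1 fit of 3 groups with a variance trend, two-sided, with Benjamini-Hochberg adjustment over 15161 genes and degrees of freedom of 3 (residual) and 2.76 (prior). The median replicate SD was 0.195 (log2). Replicate differences of the 3 groups, paired by number, correlated at 0.166, 0.197 and 0.152 across genes. Each comparison has only 2 numbers and no label ties a number to a shared day or culture, so the reported fit has no block, and blocked values stand beside the results they change. This was settled with the counts of both fits known. The fit was also run on simulated independent values with large planted changes, which does not test the smaller changes or the shared trends of these data. Alternatives were another pseudocount or filter (0.5), equal medians, quantile normalization, limma-voom on recovered reads, the replicate number as a term, chromosome 11 left out, the intron length trend removed and each library left out. Members named were those called, the highest and the most changed of each role in EloA_K754R, and the 5 largest and 5 smallest Eed_null ratios from 0.5 RPKM up. Others named were chosen after their values were seen. The members and lists were chosen with earlier results of these data known.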

Additional observations from a re-analysis of the deposited data

How the results depend on the processing

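In EloA_K754R against EloA_WT the 1 member called stayed 1 with a pseudocount or filter of 0.5. It became 0 with no filter, equal medians, quantile normalization, chromosome 11 left out (Eif4a1 is then not in the fit) or the intron length trend removed. The call was also lost without each library in turn, in fits with 2 residual degrees of freedom in place of 3. With limma-voom the count became 5 (Eef1a1, Eif3g, Eif4a1 and Eif4ebp1 lower, Eif4g3 higher), where 9.04% of all genes were called. All-gene calls were 527 in the fit as reported, 1342 with limma-voom and 160 with no filter, and far fewer without each library in turn. The cause was not tested.

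The member median in EloA_K754R was 0.0051 with equal medians, 0.0035 by quantile normalization, and -0.038 after removing the length trend, and lay between -0.299 and -0.156 without each library; it was -0.289 without EloA_WT replicate 1 and -0.299 without EloA_K754R replicate 2. In EloA_K754M it was 0.049 and 0.023 under the same scalings, and between the mutants -0.020 by quantile normalization and 0.0446 to 0.214 without each library (0.214 without EloA_K754R replicate 2). For Eed_null the median was -0.025 with equal medians and 3 members were past 1.5-fold with a pseudocount of 0.5.

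Of the members whose change is given or that were named by rule, those that changed sign were all uncalled. In EloA_K754M, Eif2b2 was at 0.022 with equal medians, 0.032 by quantile normalization and 0.0044 after removing the length trend, Eif1ax at 0.125, 0.142 and 0.095, and Eif2c2 at 0.073 and 0.049 under the first 2. Eef1d was at 0.062 with equal medians and 0.046 with the length trend removed, and Eif3g at 0.010 with equal medians. Without each library in turn, EloA_K754M values ran from -0.308 to 0.098 (Eif2b2), -0.235 to 0.128 (Eif2c2), -0.0089 to 0.209 (Eif3a), -0.395 to 0.528 (Eif3i), -0.037 to 0.104 (Eif2ak3), -0.628 to 0.134 (Eef2), -0.096 to 0.864 (Eif1b), -0.0997 to 0.214 (Eif2d), -0.287 to 0.00092 (Eif6), -0.501 to 0.130 (Eif5a2), -0.167 to 0.037 (Eef1d) and -0.166 to 0.162 (Eif1ax).

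In EloA_K754R, values with equal medians, by quantile normalization and after removal of the length trend were 0.111, 0.094 and 0.205 for Eif1b, 0.160, 0.127 and 0.103 for Eif4ebp2, 0.135, 0.138 and 0.044 for Eif2ak2, 0.167, 0.142 and 0.066 for Eif2d and 0.066, 0.047 and 0.015 for Eif4g1. By quantile normalization Eif4a2 was at 0.016 and Eif2s2 at 0.138, and with equal medians Eif2ak3 was at 0.0051. Without each library in turn, EloA_K754R values ran from -0.328 to 0.164 (Eif1b), -0.119 to 0.053 (Eif4ebp2), -0.166 to 0.051 (Eif2ak2), -0.016 to 0.078 (Eif4e), -0.309 to 0.055 (Eif4g1) and -0.564 to 0.068 (Eif5a2). The cause was not tested.

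With the replicate number as a block, 8 members were called in EloA_K754R, 0 in EloA_K754M and 2 between the mutants. All-gene calls with the block were 1777, 227 and 355 in the same order.

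Members with few intronic reads, Eif1 above all, carry counting error beside the spread between libraries.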
